A study of Mus musculus with 9 samples.

Results

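Dendritic cells take up antigen in a tumor, carry it to lymph nodes and present it to T cells. The 10 genes described here mark these cells or their subsets: Itgax, Flt3, Xcr1, Clec9a, Batf3, Irf8, Zbtb46, Ccr7, Cd209a and Itgae. They were taken by symbol from the 22195 genes of the deposited tables, and all 10 had enough reads to be among the 12980 genes tested. Conventional dendritic cells grow under the FLT3 receptor and carry the transcription factor ZBTB46. Type 1 cells, which depend on IRF8 and BATF3 and display XCR1 and CLEC9A, present tumor antigen to CD8 T cells, while type 2 cells are less uniform and include cells with CD209A. Maturing cells of both types put CCR7 on their surface and migrate to lymph nodes. No gene of the set belongs to dendritic cells alone, since macrophages also carry ITGAX, IRF8 acts in macrophages and B cells, and ITGAE is found on T cells.

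RNA came from subcutaneous skin tumors that C57BL/6J mice formed after injection of YUMMER1.7 cells, a mouse melanoma line made to carry many mutations by ultraviolet light. Treatment began at a tumor volume of 20 to 50 mm3, and the 9 libraries came from tumors treated with an anti-B7-H3 antibody (3 libraries), an anti-PD1 antibody (3 libraries) or the isotype control IgG (3 libraries). B7-H3 and PD1 are immune checkpoint proteins. The age and sex of the mice, and whether each library is from a mouse of its own, are not stated. The spread behind each p-value is that between these libraries and may be technical. In whole-tumor RNA, fewer cells of a type and less RNA per cell cannot be told apart.

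The depth that reached ordinary genes differed by group. Reads from 12 major satellite genes, copies of the repeat found beside mouse centromeres, made up 5.24 to 28.2% of reads in anti-B7-H3 libraries, 14.6 to 38.2% in anti-PD1 libraries and 87.0 to 92.0% in IgG libraries. Outside them, 7238991 to 14408167 estimated reads remained with anti-B7-H3, 5326257 to 9583544 with anti-PD1 and 1252516 to 3546619 with IgG. As a measure of background, 1510 olfactory and vomeronasal receptor genes, which are silent in most tissues, held 0.435 to 1.12 reads per kb with anti-B7-H3, 0.507 to 1.16 with anti-PD1 and 2.12 to 4.74 with IgG. These 3 differences run with the treatment groups, and their part in the comparisons with IgG cannot be told apart from treatment. Levels are CPM, read counts put on a common library size with the trimmed mean of M values (TMM), so a change is relative to the typical gene. Of the pigment-cell genes that would mark a melanoma, Mitf held most reads in all 3 groups. Tyr and Mlana had few reads in any group. They were at 0 in the 3 anti-B7-H3 libraries, where the receptor genes predict 0.969 and 0.266 reads. Anti-PD1 libraries held 5 and 3 reads of them, and IgG libraries 9 and 1, beside 5.14 and 1.41 predicted with IgG.

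None of the 10 genes passed an adjusted p of 0.05 in edgeR's quasi-likelihood test in any of the 3 comparisons. Over all genes tested, the anti-B7-H3 to IgG comparison called 79 genes (0.609%), the anti-PD1 to IgG comparison 53 genes (0.408%) and the comparison of the antibodies 0 genes (0%). DESeq2, limma-voom and limma-voom with quality weights also called 0 of the 10 in each comparison. At an unadjusted p under 0.05 there was 1 gene of the set for anti-B7-H3 against IgG (Itgax), where 10.6% of all genes lay under it. Anti-PD1 against IgG had 0, where 18.5% of all genes did, and the comparison between the antibodies had 2 (Itgax and Irf8), where 6.48% did. The median log2 fold change of the 10 genes was 0.22, -0.25 and 0.20 in these 3 comparisons, beside 0.03, 0.01 and 0.01 for all genes tested. The comparisons share samples, so their values are not independent of each other.

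Read by library, 2 genes of the set stood higher in every anti-B7-H3 library than in every anti-PD1 library, Itgax and Irf8, and 7.57% of all tested genes did so. Another 2, Batf3 and Ccr7, stood higher in every anti-B7-H3 library than in every IgG library, which 7.73% of all genes did. Both had few IgG reads and passed the low-count filter through the antibody libraries, Batf3 chiefly through those with anti-B7-H3. Their separation from IgG is thus partly set by the filter and does not stand as evidence of a difference. The set held 0 genes higher in every anti-PD1 library than in every IgG library, where 11.1% of all genes were. It held 0 genes lower in every library in any comparison. Of all tested genes, 8.56% were lower in every anti-B7-H3 library than in every IgG library, and 11.9% were lower in every anti-PD1 library than in the IgG libraries. Between the antibodies, 7.89% were lower in every anti-B7-H3 library.

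Promoters are shown for Itgax and Irf8, the 2 genes higher in every anti-B7-H3 library than in every anti-PD1 library. Each runs from 250 bases before to 50 bases after the RefSeq start (GRCm38.p6, plus strand). The Itgax window is chr7:128129300-128129599, and its capitals mark the AP-1 site letters TGANTCA. The table lists 2 Irf8 windows. The upstream window, shown here, is chr8:120736108-120736407, and its capitals mark the STAT-type letters TTCNNNGAA, which occur 2 times.
Itgax: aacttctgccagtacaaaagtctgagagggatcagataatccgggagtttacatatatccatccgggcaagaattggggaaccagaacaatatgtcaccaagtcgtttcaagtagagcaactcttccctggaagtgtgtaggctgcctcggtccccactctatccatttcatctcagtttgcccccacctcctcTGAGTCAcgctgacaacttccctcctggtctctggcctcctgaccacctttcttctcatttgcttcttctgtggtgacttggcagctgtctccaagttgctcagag
Irf8: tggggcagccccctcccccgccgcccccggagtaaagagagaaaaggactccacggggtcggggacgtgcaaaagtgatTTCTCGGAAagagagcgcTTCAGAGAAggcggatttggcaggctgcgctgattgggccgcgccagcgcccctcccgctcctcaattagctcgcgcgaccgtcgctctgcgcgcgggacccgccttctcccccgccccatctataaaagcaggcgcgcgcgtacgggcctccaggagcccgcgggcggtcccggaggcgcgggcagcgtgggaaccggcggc
The other Irf8 window, chr8:120738389-120738688, held 0 matches to any of the 4 motifs searched. Both motifs shown read the same on both strands. At least 1 match to TGANTCA was found in 7.81% of 32851 mouse promoters of this length, and at least 1 match to TTCNNNGAA in 8.30%. Neither window held the PU.1-type letters GAGGAAG, found on either strand in 13.6% of promoters, or the interferon-response letters GAAANNGAA, found in 8.56%. Among the other genes of the set, the Zbtb46 promoter held TGANTCA 1 time and the Clec9a promoter GAAANNGAA 1 time. The Batf3 promoter held TTCNNNGAA and GAGGAAG 1 time each. The letters are thus not particular to Itgax and Irf8. A match is a description of letters and not a mapped site. Promoters of 8 of the 10 genes were in the table, and those of Ccr7 and Itgae were not used here.

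Itgax (ENSMUSG00000030789, GRCm38 chr7:128129547-128150657) encodes CD11c, the integrin alpha chain most used to sort dendritic cells. It had 14.6, 42.8 and 39.9 CPM in the 3 anti-B7-H3 tumors, 7.94, 13.1 and 12.9 CPM in anti-PD1 tumors, and 20.6, 13.8 and 9.19 CPM in IgG tumors. Anti-B7-H3 replicates 2 and 3 stood well above all other libraries, while replicate 1 was just above the anti-PD1 range and inside the IgG range. On the log2 scale the fold change was 1.51 ± 0.40 (SE) for anti-B7-H3 against anti-PD1 (adjusted p = 0.749). Against IgG it was 1.12 ± 0.41 for anti-B7-H3 (adjusted p = 0.324) and -0.39 ± 0.42 for anti-PD1 (adjusted p = 0.652). With the receptor read share as a covariate, the difference of anti-B7-H3 from IgG turned to -1.06, and that share does not overlap between these 2 groups. The difference between the antibodies kept its direction in the 21 alternatives other than library totals, from 1.01 to 1.86, with adjusted p from 0.104 to 1.0.

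Irf8 (ENSMUSG00000041515, chr8:120736358-120756694) encodes the transcription factor that type 1 dendritic cells and their precursors need. It had 13.6, 19.0 and 17.5 CPM in anti-B7-H3 tumors, 7.65, 11.5 and 10.3 CPM in anti-PD1 tumors, and 15.4, 11.6 and 5.97 CPM in IgG tumors. The 2 antibody groups did not overlap, and the IgG libraries spread over both. Its log2 fold change was 0.76 ± 0.27 for anti-B7-H3 against anti-PD1 (adjusted p = 0.749). Anti-B7-H3 against IgG gave 0.55 ± 0.28 (adjusted p = 0.543), and anti-PD1 against IgG gave -0.22 ± 0.29 (adjusted p = 0.726). Between the antibodies the alternatives ranged from 0.55 to 0.93. The span of Irf8 overlaps that of the annotated gene Gm20388 on the same strand, and reads of any shared sequence could have been assigned to either.

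**Figure D1:**
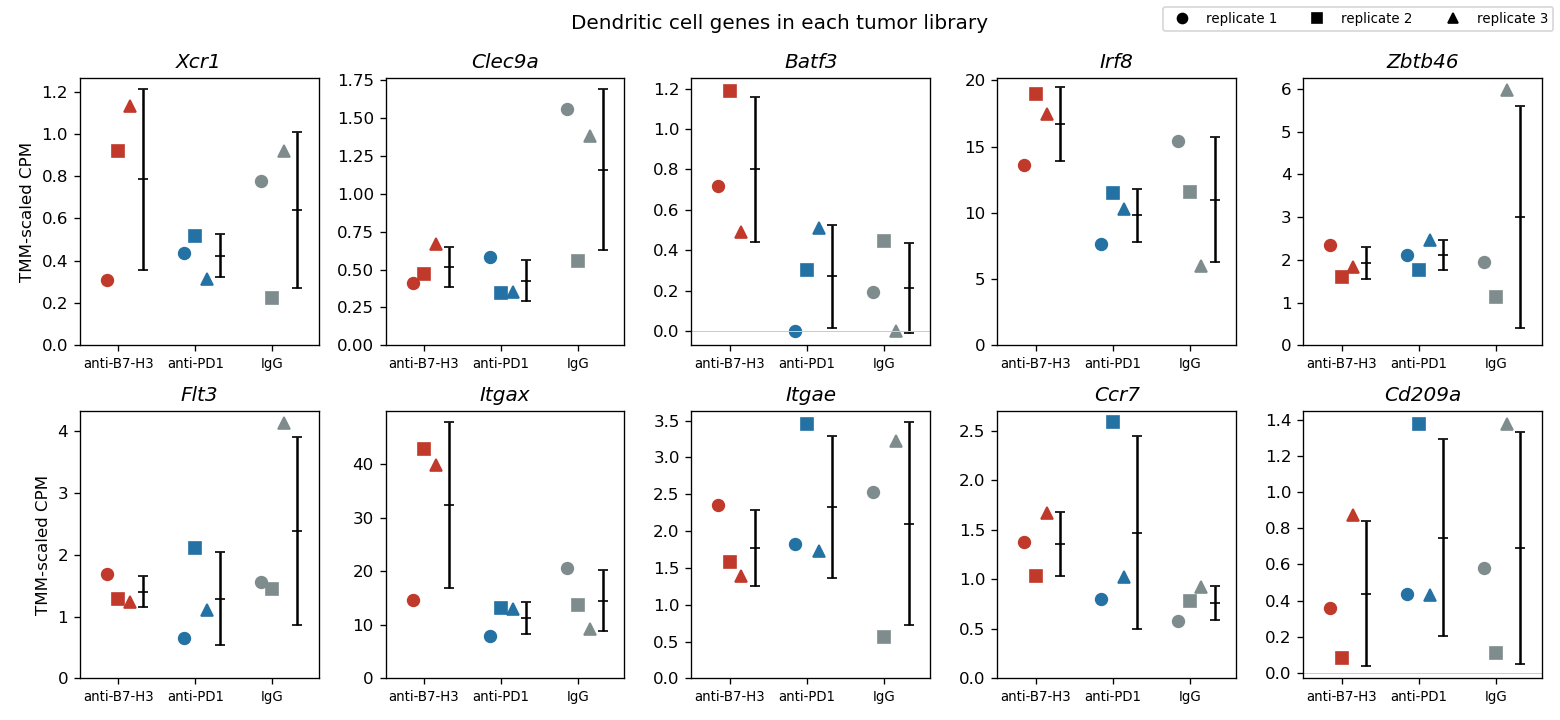
TMM-scaled CPM of each of the 10 genes (y axes) in anti-B7-H3, anti-PD1 and IgG tumors (x axes), 1 point per library with its replicate shape, and the mean ± SD of 3 libraries as black bars. Itgax and Irf8 are the 2 genes whose anti-B7-H3 points all lie above the anti-PD1 points, and the IgG points of Zbtb46 and Flt3 are set apart by replicate 3.

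Batf3 (ENSMUSG00000026630, chr1:191097847-191108945), the AP-1 family partner of IRF8 in type 1 cells, was scarce. It had 14, 43 and 19 reads in anti-B7-H3 tumors, 0, 7 and 13 reads in anti-PD1 tumors, and 1, 4 and 0 reads in IgG tumors. On the scaled level these are 0.716, 1.19 and 0.488 CPM with anti-B7-H3, 0, 0.302 and 0.510 CPM with anti-PD1, and 0.194, 0.447 and 0 CPM with IgG. The anti-B7-H3 libraries lay above all IgG libraries, but the 0 in IgG replicate 3 allows up to 1.38 CPM (3 reads, counting error only), more than any anti-B7-H3 value. Anti-B7-H3 differed by a log2 fold change of 1.48 ± 1.01 from IgG (adjusted p = 0.660) and 1.44 ± 0.81 from anti-PD1 (adjusted p = 0.770).

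Xcr1 (ENSMUSG00000060509, chr9:123852315-123862029) encodes the chemokine receptor of type 1 cells, whose ligand XCL1 is made by T cells and NK cells. It had 0.307, 0.917 and 1.13 CPM with anti-B7-H3, 0.437, 0.517 and 0.314 CPM with anti-PD1, and 0.778, 0.223 and 0.919 CPM with IgG. As for Itgax, anti-B7-H3 replicates 2 and 3 stood above replicate 1. Here replicate 1, on 6 reads, was about level with the lowest anti-PD1 library, replicate 3, on 8 reads. Between the antibodies the log2 fold change was 0.92 ± 0.64 (adjusted p = 0.793). Anti-B7-H3 differed from IgG by 0.53 ± 0.75 (adjusted p = 0.863).

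Clec9a (ENSMUSG00000046080, chr6:129408862-129424763) encodes the receptor with which type 1 cells sense dead cells. It was highest in IgG tumors, with 0.409, 0.472 and 0.668 CPM in anti-B7-H3 tumors, 0.582, 0.345 and 0.353 CPM in anti-PD1 tumors, and 1.56, 0.558 and 1.38 CPM in IgG tumors. The IgG levels stand on 8, 5 and 3 reads, of which 1.87, 1.04 and 2.33 reads are predicted from the receptor background. Its log2 fold change was -1.06 ± 0.62 for anti-B7-H3 against IgG (adjusted p = 0.584) and -1.38 ± 0.64 for anti-PD1 against IgG (adjusted p = 0.277). The span of Clec9a overlaps that of Clec1b on the same strand. The values of the 4 type 1 genes against IgG thus had no common sign.

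Zbtb46 (ENSMUSG00000027583, chr2:181387762-181459426) marks the conventional dendritic cell lineage. It had 2.35, 1.61 and 1.83 CPM with anti-B7-H3, 2.11, 1.77 and 2.47 CPM with anti-PD1, and 1.94, 1.12 and 5.97 CPM with IgG. All but IgG replicate 3 lay within a narrow range, and that library, the shallowest outside the satellites, held 13 reads of it. Its log2 fold change against IgG was -0.43 ± 0.53 for anti-B7-H3 and -0.29 ± 0.53 for anti-PD1, and between the antibodies it was -0.14 ± 0.47. The last difference has an interval of 2 SE from -1.09 to 0.81, which leaves room for changes in both directions. Without IgG replicate 3 the value against IgG was 0.37 for anti-B7-H3 and 0.52 for anti-PD1.

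Flt3 (ENSMUSG00000042817, chr5:147330741-147400489) encodes the growth factor receptor of dendritic cell precursors. It had 1.69, 1.28 and 1.23 CPM with anti-B7-H3, 0.655, 2.11 and 1.10 CPM with anti-PD1, and 1.56, 1.45 and 4.14 CPM with IgG. IgG replicate 3 was again the highest, on 9 reads where the receptor background predicts 13.4. Against IgG the log2 fold change was -0.63 ± 0.56 for anti-B7-H3 (adjusted p = 0.748) and -0.72 ± 0.56 for anti-PD1 (adjusted p = 0.520). Between the antibodies it was 0.09 ± 0.51, with 2 SE reaching from -0.93 to 1.11.

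Itgae (ENSMUSG00000005947, chr11:73090583-73147446) encodes CD103, the integrin chain by which type 1 cells of tissues and tissue-resident T cells bind E-cadherin. It had 2.35, 1.58 and 1.39 CPM with anti-B7-H3, 1.82, 3.45 and 1.73 CPM with anti-PD1, and 2.53, 0.558 and 3.22 CPM with IgG. The 3 groups overlapped, anti-PD1 replicate 2 being the highest library, with log2 fold changes from IgG of -0.08 ± 0.59 for anti-B7-H3 and 0.33 ± 0.58 for anti-PD1, and of -0.41 ± 0.51 between the antibodies. In IgG tumors its 25 reads were fewer than the 35.4 that receptor genes of the same length would hold. The span of Itgae overlaps that of Haspin on the opposite strand. Strand was not stated for the counting, and whether the counted transcripts of these genes share sequence was not checked.

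**Figure D2:**
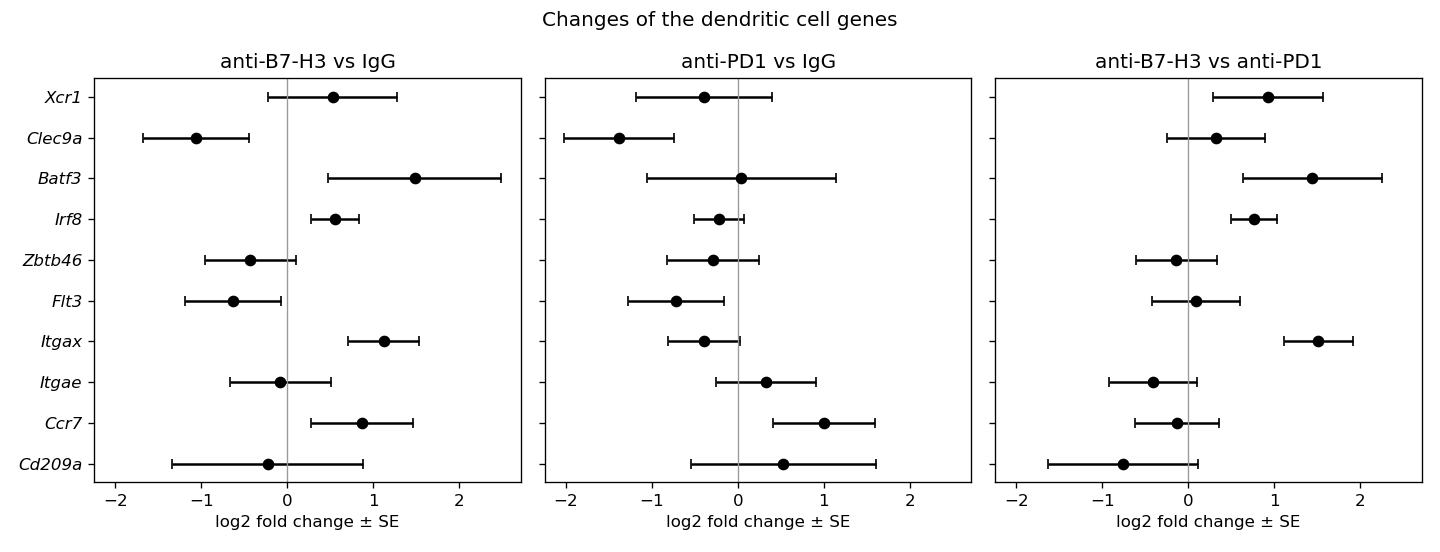
Log2 fold change ± SE (x axes) of the 10 genes (rows) from the edgeR model, with a panel for each antibody against IgG and a panel for anti-B7-H3 against anti-PD1. In the panel between the antibodies Itgax is at 1.51 and Irf8 at 0.76, and the bars of Batf3 and Cd209a are the widest in each panel.

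Ccr7 (ENSMUSG00000037944, chr11:99144196-99155077) encodes the receptor that guides mature dendritic cells to lymph nodes. It had 1.38, 1.03 and 1.67 CPM with anti-B7-H3, 0.801, 2.59 and 1.02 CPM with anti-PD1, and 0.583, 0.782 and 0.919 CPM with IgG. All anti-B7-H3 libraries lay above all IgG libraries, and anti-PD1 replicate 2 was the highest of the 9. Against IgG its log2 fold change was 0.87 ± 0.59 for anti-B7-H3 (adjusted p = 0.659) and 1.00 ± 0.59 for anti-PD1 (adjusted p = 0.394). Without anti-PD1 replicate 2 the second of these was 0.31. The 3, 7 and 2 reads of Ccr7 in IgG tumors lie beside 3.63, 2.03 and 4.54 reads predicted from the receptor background.

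Cd209a (ENSMUSG00000031494, chr8:3743397-3748984) encodes a lectin of the DC-SIGN family that marks type 2 and monocyte-derived dendritic cells. It had 0.358, 0.0833 and 0.874 CPM with anti-B7-H3, 0.437, 1.38 and 0.431 CPM with anti-PD1, and 0.583, 0.112 and 1.38 CPM with IgG. Replicate 3 of anti-B7-H3 held 34 reads, replicate 2 of anti-PD1 held 32, and the 7 other libraries held 1 to 11. Between the antibodies it stood at a log2 fold change of -0.76 ± 0.87 (adjusted p = 0.862). It was 0.03 without anti-PD1 replicate 2 and -1.84 without anti-B7-H3 replicate 3. The related genes Cd209b, Cd209c, Cd209d and Cd209e had too few reads to be tested, and reads shared within this family may be split uncertainly.

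The 2 libraries with most Cd209a reads were also those richest in skeletal muscle and macrophage genes. The 5 muscle genes summed to 232, 0.639 and 1310 CPM with anti-B7-H3, 49.4, 889 and 405 CPM with anti-PD1, and 21, 42.5 and 15.2 CPM with IgG. The 12 macrophage and monocyte genes summed to 740, 650 and 1170 CPM with anti-B7-H3, 557, 1300 and 513 CPM with anti-PD1, and 610, 539 and 252 CPM with IgG. On the scaled level IgG replicate 3 reached the same 1.38 CPM of Cd209a as anti-PD1 replicate 2, on 3 reads. It had 15.2 CPM of muscle genes and the lowest sum of macrophage genes, 252 CPM. Ckm was at 0 in anti-B7-H3 replicate 2, the library with almost no muscle RNA, where Itgax was highest. Ccl21a, a ligand of CCR7 made by lymphatic vessels and lymph node stroma, had 5, 8 and 48 reads with anti-B7-H3, 3, 39 and 8 reads with anti-PD1, and 1, 0 and 0 reads with IgG. Its reads too were most in those 2 libraries. The part of muscle or other tissue in the levels of Cd209a and Ccr7 was not tested. Without both libraries, the log2 fold change of Itgax between the antibodies was 1.46 and that of Irf8 was 0.86.

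**Figure D3:**
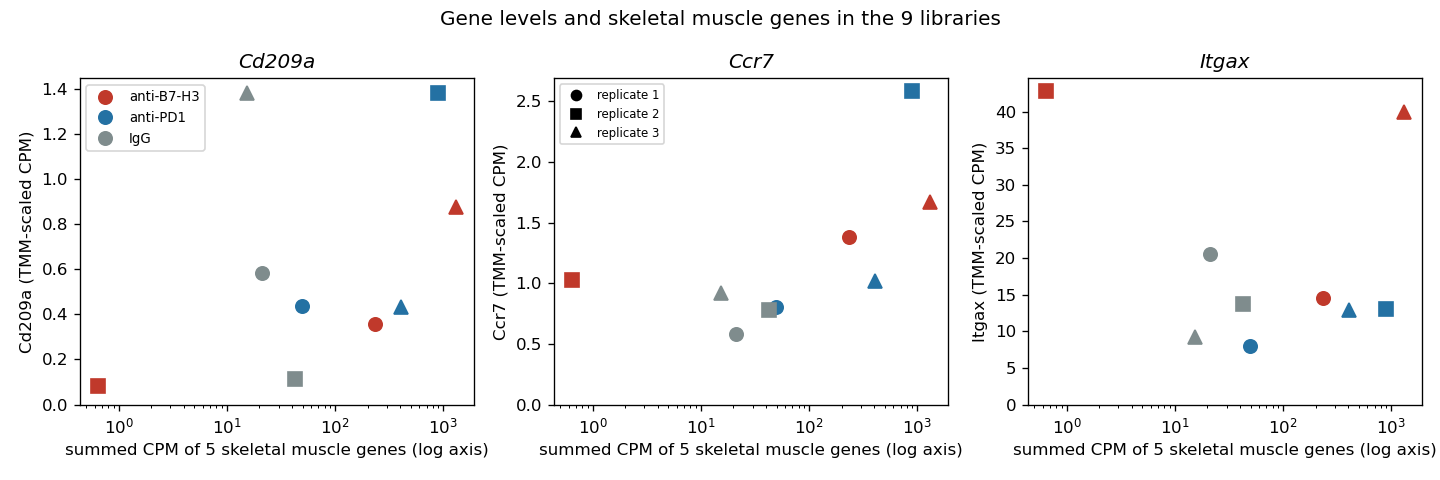
Level of Cd209a, Ccr7 and Itgax (y axes, TMM-scaled CPM) against the summed CPM of 5 skeletal muscle genes (x axes, log scale) in the 9 libraries, colored by treatment and shaped by replicate. Ccr7 is highest in anti-PD1 replicate 2 (2.59 CPM), while Itgax is as high in anti-B7-H3 replicate 2, at 0.639 CPM of muscle genes, as in replicate 3, at 1310 CPM.

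The reads behind these levels set apart the IgG group. Summed over 3 libraries, each gene in anti-B7-H3 tumors had 22.4 to 741 times the reads predicted from the receptor genes, and in anti-PD1 tumors 12.1 to 231 times. With IgG, Itgae stood at 0.706 times, Xcr1 at 0.952, Flt3 at 0.997, Ccr7 at 1.18 and Cd209a at 1.23 times the predicted reads. Expression of these 5 genes was thus not detectable above background in IgG tumors at this depth. Batf3 at 2.43, Clec9a at 3.05 and Zbtb46 at 3.13 times stood somewhat higher, and Itgax at 7.07 and Irf8 at 16.8 times stood clear of it. In IgG replicate 3 alone, Itgax had 20 reads against 15.8 predicted.

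Summed marker levels of keratinocytes and red blood cells were also higher in IgG tumors. The 7 Langerhans cell and keratinocyte genes summed to 0.611 to 2.10 CPM with anti-B7-H3, 0.941 to 2.18 with anti-PD1 and 9.72 to 26.2 with IgG. Of the 2 that were tested, Dsp, a desmosome protein, was lower with anti-B7-H3 by a log2 fold change of -4.08 ± 0.79 (adjusted p = 0.0499), and Krt10 was at -3.48 ± 0.71 (adjusted p = 0.0574). Against IgG, anti-PD1 gave -3.78 ± 0.79 for Dsp (adjusted p = 0.0627). In IgG tumors the 94 reads of Dsp lie beside 90.3 predicted from the receptor background, so Dsp was not detectable above it there. Krt10 had 42 reads beside 2.6 predicted, and the 7 genes together had 299 beside 156. The 5 erythroid genes summed to 20.7 to 56.0 CPM with anti-B7-H3, 22.4 to 41.8 with anti-PD1 and 64.0 to 355 with IgG. Hbb-bt, a beta globin, was lower with anti-B7-H3 by -2.21 ± 0.42 (adjusted p = 0.0479), and anti-PD1 gave -2.19 ± 0.42 (adjusted p = 0.0575). No gene of either list was at 0 in all libraries. These differences run with the groups, and their part in the values against IgG cannot be told apart from treatment.

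**Figure D4:**
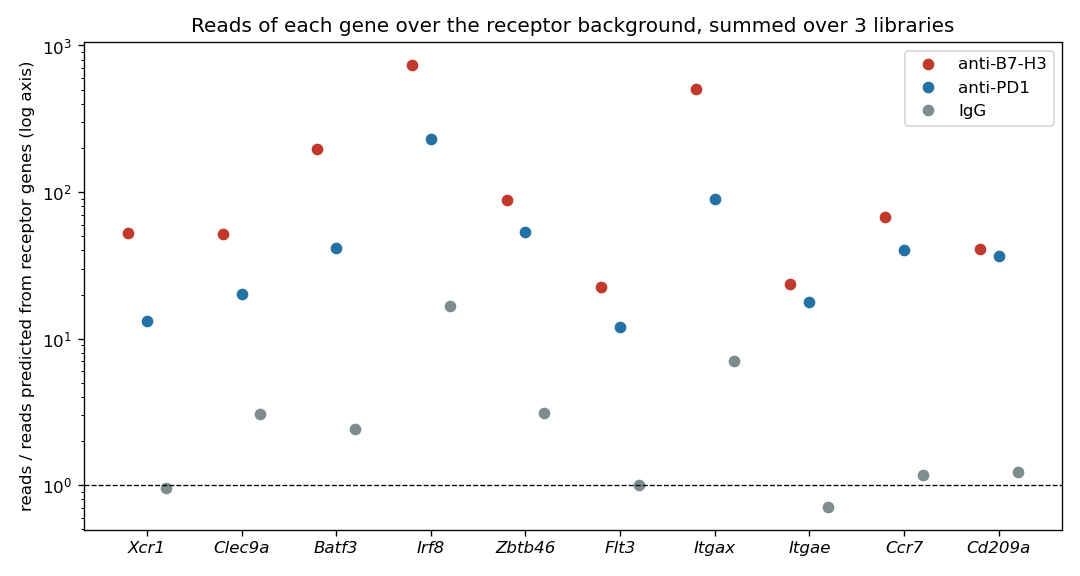
Reads of each gene summed over the 3 libraries of a group, divided by the reads predicted from olfactory and vomeronasal receptor genes per kb (y axis, log scale), for the 10 genes (x axis) in anti-B7-H3, anti-PD1 and IgG tumors. The dashed line marks a ratio of 1. In IgG tumors 5 genes lie between 0.706 and 1.23, and Irf8 reaches 16.8.

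Per kb of effective length, the level of Irf8 was highest in the mean of all 3 groups, at 15.3 ± 2.54 CPM per kb (SD, n = 3) with anti-B7-H3, 8.97 ± 1.80 with anti-PD1 and 10 ± 4.32 with IgG. Itgax followed at 9.77 ± 4.67 with anti-B7-H3, 3.41 ± 0.885 with anti-PD1 and 4.38 ± 1.73 with IgG. The 2 genes overlapped between libraries of the anti-B7-H3 group and of the IgG group, and not of the anti-PD1 group. In anti-B7-H3 tumors Batf3 came next, at 4.15 ± 1.87, above Zbtb46 at 1.95 ± 0.386 in every library. Ccr7, Clec9a, Xcr1, Cd209a, Itgae and Flt3 then ran down from 1.42 to 0.496 CPM per kb, and each overlapped its neighbor in that order in the values of its libraries. In anti-PD1 tumors Zbtb46 followed Itgax at 2.14 ± 0.356, and the last was again Flt3 at 0.457 ± 0.265.

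Since macrophages also express Itgax and Irf8, both were set beside Csf1r, the receptor that macrophages depend on, within each library. This measure was chosen after the levels were seen and is a description. Itgax had 14.0, 50.7 and 30.0 reads per 100 Csf1r reads in anti-B7-H3 tumors, 9.68, 7.60 and 17.4 in anti-PD1 tumors, and 28.1, 21.2 and 28.2 in IgG tumors. Irf8 had 13.1, 22.5 and 13.1 in anti-B7-H3 tumors, 9.33, 6.68 and 13.8 in anti-PD1 tumors, and 21, 17.7 and 18.3 in IgG tumors. For both genes all anti-PD1 libraries lay below all IgG libraries on this ratio, while the anti-B7-H3 libraries overlapped both groups. On the same ratio 34.2% of all tested genes were lower in every anti-PD1 library than in every IgG library, so this is not particular to Itgax and Irf8. Csf1r itself stood higher in every anti-PD1 library, at 82.0, 172 and 74.6 CPM, than in IgG libraries, at 73.3, 65.4 and 32.6 CPM (log2 fold change 0.92 ± 0.37, adjusted p = 0.217). With 3 against 3 libraries an exact two-sided permutation test cannot go below 0.1. Set beside Itgb2, neither gene separated anti-PD1 from IgG. Itgax had 59.5, 118 and 60.9 reads per 100 Itgb2 reads in anti-B7-H3 tumors, 44.5, 44.0 and 61.6 in anti-PD1 tumors, and 72.1, 115 and 58.8 in IgG tumors. Irf8 had 55.3, 52.3 and 26.7 in anti-B7-H3 tumors, 42.9, 38.6 and 48.9 in anti-PD1 tumors, and 53.7, 96.3 and 38.2 in IgG tumors.

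**Figure D5:**
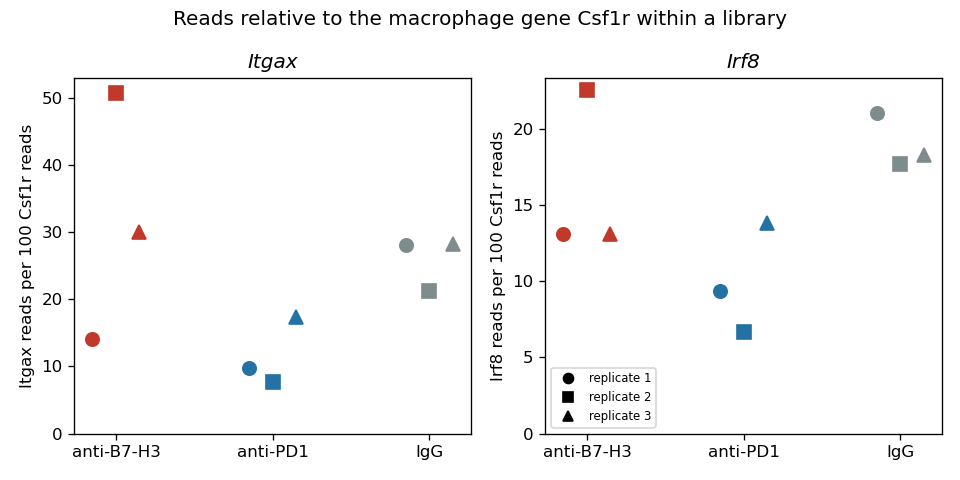
Reads of Itgax (left) and Irf8 (right) per 100 reads of Csf1r (y axes) in anti-B7-H3, anti-PD1 and IgG tumors (x axes), 1 point per library. The anti-PD1 points, 7.60 to 17.4 for Itgax and 6.68 to 13.8 for Irf8, all lie below the IgG points, 21.2 to 28.2 and 17.7 to 21, as they do for 34.2% of all tested genes.

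Of 10 partners and ligands of these genes, 7 were tested and 0 passed an adjusted p of 0.05 in any comparison. Itgb2, the beta chain that pairs with CD11c and with other leukocyte integrins, had 24.6, 36.3 and 65.4 CPM with anti-B7-H3, 17.8, 29.8 and 21 CPM with anti-PD1, and 28.6, 12.1 and 15.6 CPM with IgG. Its log2 fold change was 1.17 ± 0.41 for anti-B7-H3 against IgG (adjusted p = 0.302) and 0.88 ± 0.39 between the antibodies (adjusted p = 0.749). Itgb7, which pairs with CD103, was at 0.90 ± 0.56 for anti-B7-H3 against IgG, and Cdh1, the E-cadherin that CD103 binds, at -0.56 ± 0.49. Flt3l, the ligand of FLT3, was at -0.21 ± 0.54 for anti-B7-H3 and -0.95 ± 0.56 for anti-PD1 against IgG. Xcl1, the ligand of XCR1, had 4, 26 and 24 reads with anti-B7-H3, 6, 35 and 21 reads with anti-PD1, and 2, 6 and 0 reads with IgG.

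The chains of the receptor for GM-CSF, a growth factor of monocyte-derived dendritic cells, differed in pattern. Csf2rb, the shared beta chain, had 14.5, 16.0 and 18.6 CPM with anti-B7-H3, 9.54, 15.3 and 10.8 CPM with anti-PD1, and 11.7, 10.5 and 8.27 CPM with IgG. All anti-B7-H3 libraries lay above the IgG libraries, as for 7.73% of all tested genes. The log2 fold change was 0.66 ± 0.23 (adjusted p = 0.274). Csf2ra, the alpha chain, was lower in every anti-PD1 library than in every IgG library, as 11.9% of all tested genes were. Its log2 fold change was -0.83 ± 0.32 (adjusted p = 0.201). Csf2, the cytokine itself, and the CCR7 ligand Ccl19 had too few reads to be tested.

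Other genes of dendritic cell subsets gave 0 calls in either direction in all 3 comparisons. Of 10 other type 1 genes 7 were tested, with a median log2 fold change from IgG of 0.22 for anti-B7-H3 and 0.05 for anti-PD1, and of 0.36 between the antibodies. Wdfy4, which type 1 cells need to cross-present antigen, had 32.6, 35.7 and 34.8 CPM with anti-B7-H3, 20.7, 30.6 and 26.4 CPM with anti-PD1, and 23.7, 23.6 and 14.2 CPM with IgG. It was higher in every anti-B7-H3 library than in every other library, at 0.71 ± 0.22 against IgG (adjusted p = 0.201). Among all tested genes, 7.73% were higher in every anti-B7-H3 than IgG library, and 7.57% in every anti-B7-H3 than anti-PD1 library. The share with both was not counted. Per kb of effective length, Wdfy4 had a mean of 6.94 CPM in anti-B7-H3 tumors. Xcr1 had 0.995, Clec9a 1.05, Batf3 4.15 and Irf8 15.3 CPM per kb there. Which cells held the reads of Wdfy4 and the other genes of this list was not tested. Ly75, the uptake receptor DEC-205, was higher in every anti-B7-H3 than anti-PD1 library, at 0.61 ± 0.24 (adjusted p = 0.749). Naaa was at 1.09 ± 0.41 and Cadm1, an adhesion protein of type 1 cells, at 0.22 ± 0.32 for anti-B7-H3 against IgG.

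Of 12 other type 2 genes 7 were tested, and their median against IgG was 0.81 for anti-B7-H3 and 0.74 for anti-PD1, and it was 0.08 between the antibodies. Mgl2, a lectin of type 2 cells that macrophages share, had 6.75, 5.92 and 11.7 CPM with anti-B7-H3, 4.73, 14.8 and 4.35 CPM with anti-PD1, and 3.31, 2.68 and 1.84 CPM with IgG. All antibody libraries lay above all IgG libraries, at 1.58 ± 0.55 for anti-B7-H3 (adjusted p = 0.292) and 1.55 ± 0.55 for anti-PD1 (adjusted p = 0.180). Among all tested genes, 7.73% were higher in every anti-B7-H3 than IgG library, and 11.1% in every anti-PD1 than IgG library. Sirpa, the receptor for CD47 on macrophages and type 2 cells, was at 0.81 ± 0.29 for anti-B7-H3 (adjusted p = 0.309) and 0.78 ± 0.29 for anti-PD1 (adjusted p = 0.197), also without overlap. The macrophage genes lay on the same side, with medians of 1.00 for anti-B7-H3 and 0.89 for anti-PD1 against IgG over 12 tested genes and 0 calls, and their part in these values was not tested. Klf4 and Esam, also on the type 2 list, had smaller or negative values. Klf4 was at 0.14 ± 0.37 for anti-B7-H3 and -0.92 ± 0.37 for anti-PD1 (adjusted p = 0.223) against IgG, and Esam at -0.18 ± 0.28 and -0.08 ± 0.28 for the same antibodies. Between the antibodies Klf4 was at 1.06 ± 0.36 (adjusted p = 0.749).

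Genes of mature and migrating cells, 12 of 14 tested, had medians against IgG of 0.11 for anti-B7-H3 and 0.16 for anti-PD1, and of 0.22 between the antibodies. Relb, an NF-kappaB subunit of maturation, had 12, 16.4 and 16.7 CPM with anti-B7-H3, 8.96, 10 and 9.77 CPM with anti-PD1, and 16.5, 13.4 and 10.6 CPM with IgG. All anti-PD1 libraries lay below both other groups, and the log2 fold change was 0.65 ± 0.20 for anti-B7-H3 against anti-PD1 (adjusted p = 0.749). Among all tested genes, 7.57% were higher in every anti-B7-H3 than anti-PD1 library, and 11.9% were lower in every anti-PD1 than IgG library. Fscn1, the actin bundler of migrating cells, was at 0.21 ± 0.26 between the antibodies, Cacnb3 at 0.22 ± 0.24 and the costimulatory ligand Cd80 at 0.31 ± 0.23. In anti-B7-H3 tumors Fscn1 had a mean of 83.1 CPM per kb, and Lamp3, on the same list, 0.0411. Of 12 plasmacytoid cell genes 8 were tested, with medians against IgG of 0.39 for anti-B7-H3 and -0.19 for anti-PD1, and of 0.53 between the antibodies. Tlr9, the DNA sensor of these cells, was higher in every anti-B7-H3 than anti-PD1 library, at 0.68 ± 0.26 (adjusted p = 0.749). Bst2 at 0.69 ± 0.52, Irf7 at 0.72 ± 0.50 and Tcf4 at -0.20 ± 0.23 were the other 3 most abundant, and Siglech, a defining gene, had too few reads to be tested. Per kb of effective length, Siglech had a mean of 0.336 CPM in anti-B7-H3 tumors, beside 142 for Bst2, 116 for Tcf4, 24.0 for Irf7 and 3.44 for Tlr9. Which cells held the reads of these 2 lists was not tested, so their medians are not levels of these cells.

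Gzmb, Prf1 and Cd8a were higher in anti-B7-H3 replicates 2 and 3 than in replicate 1, as were Itgax, Irf8 and Xcr1. Flt3, Zbtb46 and Itgae were instead highest in replicate 1 of that group. So was the T cell gene Cd4, at 1.99, 1.22 and 1.52 CPM, while Cd3d differed little, at 1.38, 1.42 and 1.52 CPM. The T cell genes Cd3e, Cd3g, Cd8b1, Cd2 and Cd5 ran with Cd8a, higher in replicates 2 and 3 than in replicate 1. Cd3g, for example, had 1.89, 3.86 and 3.70 CPM in the anti-B7-H3 libraries. Gzmb, the granzyme of cytotoxic cells, had 1.79, 4.44 and 6.07 CPM with anti-B7-H3, 1.02, 1.25 and 1.45 CPM with anti-PD1, and 3.11, 0.670 and 2.30 CPM with IgG. Prf1 and Cd8a likewise stood higher in anti-B7-H3 replicates 2 and 3 than in replicate 1, at 4.17 and 5.71 against 1.28 CPM for Prf1, and 4.44 and 4.27 against 1.64 CPM for Cd8a. The 8 T cell genes summed to 12 to 19.3 CPM with anti-B7-H3, 8.30 to 13.7 with anti-PD1 and 5.92 to 19.1 with IgG. The 6 NK cell genes summed to 4.81 to 16.8 CPM with anti-B7-H3, 3.71 to 6.12 with anti-PD1 and 4.58 to 15.6 with IgG, and no gene of either list was called or at 0 in all libraries. Anti-B7-H3 replicate 1 had the highest satellite share of its group, 28.2% beside 5.24 and 6.41%, and the part of that share in its lower values was not tested.

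Among 10548 genes with a mean of at least 1 log2 CPM, the profile of Itgax over the 9 libraries was closest to that of Cd72, a receptor of B cells and some myeloid cells, with a root mean square difference of 0.18 log2 units. Btc, an EGF family growth factor, followed at 0.34 and Cd3g, a chain of the T cell receptor complex, at 0.35. For Irf8 the closest were Slc13a3, Itga9 and Pik3ap1, at 0.14 each. For Xcr1 they were Ifi205 at 0.26, Casp4 at 0.27 and Atp8b4 at 0.27. These 9 libraries share the group differences in depth and satellite reads, and likeness says nothing of shared cells. For Cd209a, the muscle intermediate filament gene Synm was closest at 0.56, and for Batf3 the closest, Bin2, was at 0.70, so neither had a close match.

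The tables are per transcript. Flt3, Xcr1, Batf3, Ccr7 and Itgae have 1 listed transcript each. The Itgax transcript with a coding length of 3510 bases held 99.7% or more of Itgax reads in each group, and the Irf8 transcript of 1275 bases held 99.5% or more of Irf8 reads. Clec9a and Zbtb46 had fewer than 50 reads in IgG tumors, too few for a comparison of transcripts.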

How the data were processed

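RNA was ribosomal-depleted total RNA (RNA integrity number 7.0 or greater, at least 500 ng), per the labels. Per the file headers, the authors deposited estimated counts per transcript, TPM and effective lengths. The deposited TPM values were not tested. FastQC 0.11.8 and GRCm38 are named in the submitters' processing notes, and the sources used here do not name the quantifier. Of 58083 transcripts, 57473 matched GENCODE M21 by identifier, and the 610 others held 0.0537 to 0.344% of reads. For 92.2% of transcripts the listed length is the coding length. Counts were summed per gene, rounded and fitted in R 4.3.3 with edgeR 4.0.16 (TMM, filterByExpr, robust quasi-likelihood F test on all 9 libraries, Benjamini-Hochberg over 12980 genes) and checked on simulated data. On simulated counts the test recovered 0 to 4% of 1.5-fold, 10 to 24% of 2-fold and 66 to 82% of 4-fold changes over the 3 comparisons. Of its calls there, 3.23 to 11.1% were false. The changed genes were drawn from all genes tested, so these are not rates for the 10 genes, most of which had few reads. A gene that was not called may thus still have changed. DESeq2 1.42.0, limma 3.58.1 and other scalings, filters and samples were alternatives. Satellite genes share more than 30% of their 15-base words with Gm10800.

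The genes and lists were chosen with earlier results of these data known. Named are the 10 genes, all partners and ligands, the 4 most abundant of each other dendritic cell list, the 2 most abundant of each other cell type and the 3 most like genes per member. The text prints some of these. Csf1r ratios, Ccl21a, Ckm, Tyr, Mlana, Siglech, Lamp3 and Hbb-bt were chosen after values were seen. So were the T cell genes printed beside Cd3g and Cd8a. The same holds for 2 alternatives (receptor background subtracted, and without the 2 libraries richest in muscle genes). The combination arm was not analysed here.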

Additional observations from a re-analysis of the deposited data

How the results depend on the processing

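Of 633 values of single genes under 22 alternatives, 556 kept their direction and side of the threshold and 68 turned direction. An adjusted p under 0.05 was reached by 20 values, all with library totals. None of the 10 genes was called under any alternative except library totals, which called 10 of 10, all higher, for each antibody against IgG, and 0 between the antibodies. There the median of all genes moved to 3.37, 3.15 and 0.20. Its reversed log2 fold changes were, for anti-B7-H3 against IgG, Cd209a 3.18, Clec9a 2.36, Flt3 2.77, Itgae 3.37 and Zbtb46 3.03. For anti-PD1 against IgG they were Clec9a 1.80, Flt3 2.56, Irf8 2.97, Itgax 2.83, Xcr1 2.77 and Zbtb46 3.00, and between the antibodies Ccr7 0.01 and Zbtb46 0.03. These are below or near the moved medians.

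The receptor share as a covariate reversed, for anti-B7-H3 against IgG, Batf3 to -0.37, Ccr7 to -0.01, Irf8 to -0.51, Itgae to 1.37, Itgax to -1.06, Xcr1 to -0.39 and Zbtb46 to 1.64. It reversed Batf3 to -1.48 and Zbtb46 to 1.41 for anti-PD1 against IgG, and Zbtb46 to 0.24 between the antibodies. Subtracting the receptor background reversed, against IgG, Cd209a to 2.50, Flt3 to 1.67, Itgae to 8.0 and Zbtb46 to 0.02 for anti-B7-H3, and Flt3 to 1.52, Xcr1 to 2.35 and Zbtb46 to 0.14 for anti-PD1. Itgae had 0 IgG reads left, so its value depends on the prior count. Limma-voom gave Itgae 0.37 and Zbtb46 0.05 for anti-B7-H3 and Batf3 -0.59 and Zbtb46 0.24 for anti-PD1 against IgG. With quality weights these were Itgae 0.11, Batf3 -0.81 and Zbtb46 0.37 for the same comparisons, and Ccr7 0.13 between the antibodies. Without a low-count filter Itgae was at 0.17 for anti-B7-H3 against IgG. The cause was not tested.

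Leaving out 1 library at a time reversed some genes. For anti-B7-H3 against IgG the range was -1.33 to 0.54 for Cd209a, -0.66 to 0.31 for Itgae, -0.04 to 0.87 for Xcr1 and -0.91 to 0.37 for Zbtb46. For anti-PD1 against IgG it was -0.69 to 1.11 for Batf3, -0.30 to 1.31 for Cd209a, -0.44 to 0.08 for Irf8, -0.25 to 0.72 for Itgae and -0.77 to 0.52 for Zbtb46. Between the antibodies it was -0.41 to 0.57 for Ccr7, -1.84 to 0.03 for Cd209a and -0.21 to 0.64 for Flt3. With anti-B7-H3 replicate 3 left out together with replicate 2 of anti-PD1, Itgae was at 0.07 for anti-B7-H3 and -0.07 for anti-PD1 against IgG. Between the antibodies it was at 0.15, Ccr7 at 0.39 and Clec9a at -0.05. Over this and the single libraries left out, the range between the antibodies was -0.65 to 0.15 for Itgae, -0.05 to 0.56 for Clec9a and -0.21 to 0.73 for Flt3.

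Same-numbered libraries correlated at -0.322 to 0.180, so the numbers were not taken to pair samples. With the replicate number as a block, 0 of the 10 genes were called in each comparison, and Ccr7 turned to 0.01 between the antibodies. In IgG tumors 8 of the 10 genes had only 5 to 33 reads over 3 libraries, which limits the precision of each comparison with IgG.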
